A study of Homo sapiens with 12 samples.

Results

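The genes described here are 53 DNA replication and G1/S genes, taken by symbol from the 40605 rows of a merged gene count table of 12 RNA libraries. All 53 members were found, and all 53 were among the 13047 genes that passed the filter on low counts. They fall into 8 roles: origin licensing (11 genes), origin firing and helicase (6), polymerases and primase (8), clamp, clamp loader, Okazaki maturation and single-strand binding (11), nucleotide supply and uracil removal (6), G1/S control (4), chromatin, methylation and histone supply (5), and checkpoint and ligase adaptor (2).

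All libraries came from A549, a human lung adenocarcinoma cell line, engineered to express DYRK1B under a tetracycline-responsive promoter. DYRK1B is a protein kinase, and the construct encodes either the wild type (WT) or the Y273F form, which lacks a tyrosine of the activation loop. By title each line has a control and a doxycycline group (2 µg/ml), each with 3 libraries from populations kept side by side for 7 days. The titles WT control 1 to 3 belong to libraries 1 to 3, WT doxycycline to 4 to 6, Y273F control to 7 to 9 and Y273F doxycycline to 10 to 12. Cells without a transgene are not among the samples, so doxycycline alone and the induced kinase cannot be told apart. Whether each line is a clone is not stated in the labels. Libraries are a 3' tag type, in which a transcript gives reads near its poly(A) end whatever its length.

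DNA replication is prepared in G1, when the origin recognition complex, CDC6 and CDT1 load the MCM helicase onto origins, and is started in S phase, when CDC45 and the GINS complex turn that helicase on. Most genes of this machinery are transcribed together at the G1/S boundary by E2F factors, which the retinoblastoma protein family holds back in resting cells. In quiescent cells the DREAM complex, which assembles on a MuvB core with the help of the DYRK1B relative DYRK1A, keeps many of the same promoters silent, so these genes are a common readout of how much of a culture is entering S phase.

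The 12 libraries held 2.78e+06 to 2.20e+07 gene counts, with a median of 7.55e+06. Levels are given as CPM, the counts of a gene scaled to a library of 1e+06, and a count of 3 is worth 0.134 to 1.07 CPM depending on the library. The libraries were also compared in 4 sets by number, 1/5/9, 2/6/10, 3/7/11 and 4/8/12. These sets were chosen with earlier results of these data known, they cut across the titles, and differences between them are given as descriptions with no test. Libraries 2, 6 and 10 are titled WT control 2, WT doxycycline 3 and Y273F doxycycline 1, and held 2.78e+06 to 7.17e+06 counts, a range that overlaps that of the other 9 (3.00e+06 to 2.20e+07). All 9 markers of the A549 epithelial identity were read, at a summed 17560 to 21470 CPM in libraries 2, 6 and 10 and 12260 to 16030 CPM in the other 9. Among them 3 lay wholly above and 2 wholly below the other 9, where 18.8% and 16.3% of all tested genes did. The marker differences (of medians, log2 CPM) had a median of -0.57 and ran from -1.29 for EPCAM to 1.55 for KRT18. The sum was thus higher in libraries 2, 6 and 10 while the median marker was lower. DYRK1B itself was highest in libraries 4, 8 and 12 (28.6, 12.6 and 20 CPM), which are titled WT doxycycline 1, Y273F control 2 and Y273F doxycycline 3, and was 2.63 to 7.80 CPM in the other libraries. Where along the transcript its reads fall was not examined, and the labels do not say whether the transgene keeps the natural 3' end.

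The replication genes were lower in libraries 2, 6 and 10 than in the rest. For 45 of the 53 members all 3 of these libraries lay below all of the other 9, against 16.3% of the 13047 tested genes, and no member had all 3 above the other 9, against 18.8% of the tested genes. The median difference of the members (log2 CPM, median of libraries 2, 6 and 10 minus median of the other 9) was -0.75, beside -0.01 over all tested genes. The difference was negative in 52 members and in 50.8% of all tested genes, and 14 members were over 2-fold lower, beside 5.47% of all tested genes. In RNA of whole cultures, fewer cells in S phase and less RNA per cell cannot be told apart.

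The members together took 0.245% to 0.248% of all gene counts in libraries 2, 6 and 10 and 0.385% to 0.432% in each of the other 9. The mean level of the 53 members, centred on each gene's mean over the 12 libraries, was -0.54, -0.60 and -0.58 log2 units in libraries 2, 6 and 10 and 0.14 to 0.25 in the other 9. The gap between these ranges is wider than either range. Summed markers of fibroblasts (COL1A1 and LUM were the 2 of 7 that passed the filter) were also apart, at 148 to 212 CPM in libraries 2, 6 and 10 and 14.5 to 32.2 CPM in the other 9, with none of the 7 at 0 in all libraries. Leukocyte markers summed to 5.85 to 11.3 CPM and 4.98 to 11.9 CPM, with CD3E at 0 in all libraries, and endothelial markers summed to at most 0.279 and 0.586 CPM, with VWF and KDR at 0. The part of the fibroblast markers in the result was not tested.

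**Figure D1:**
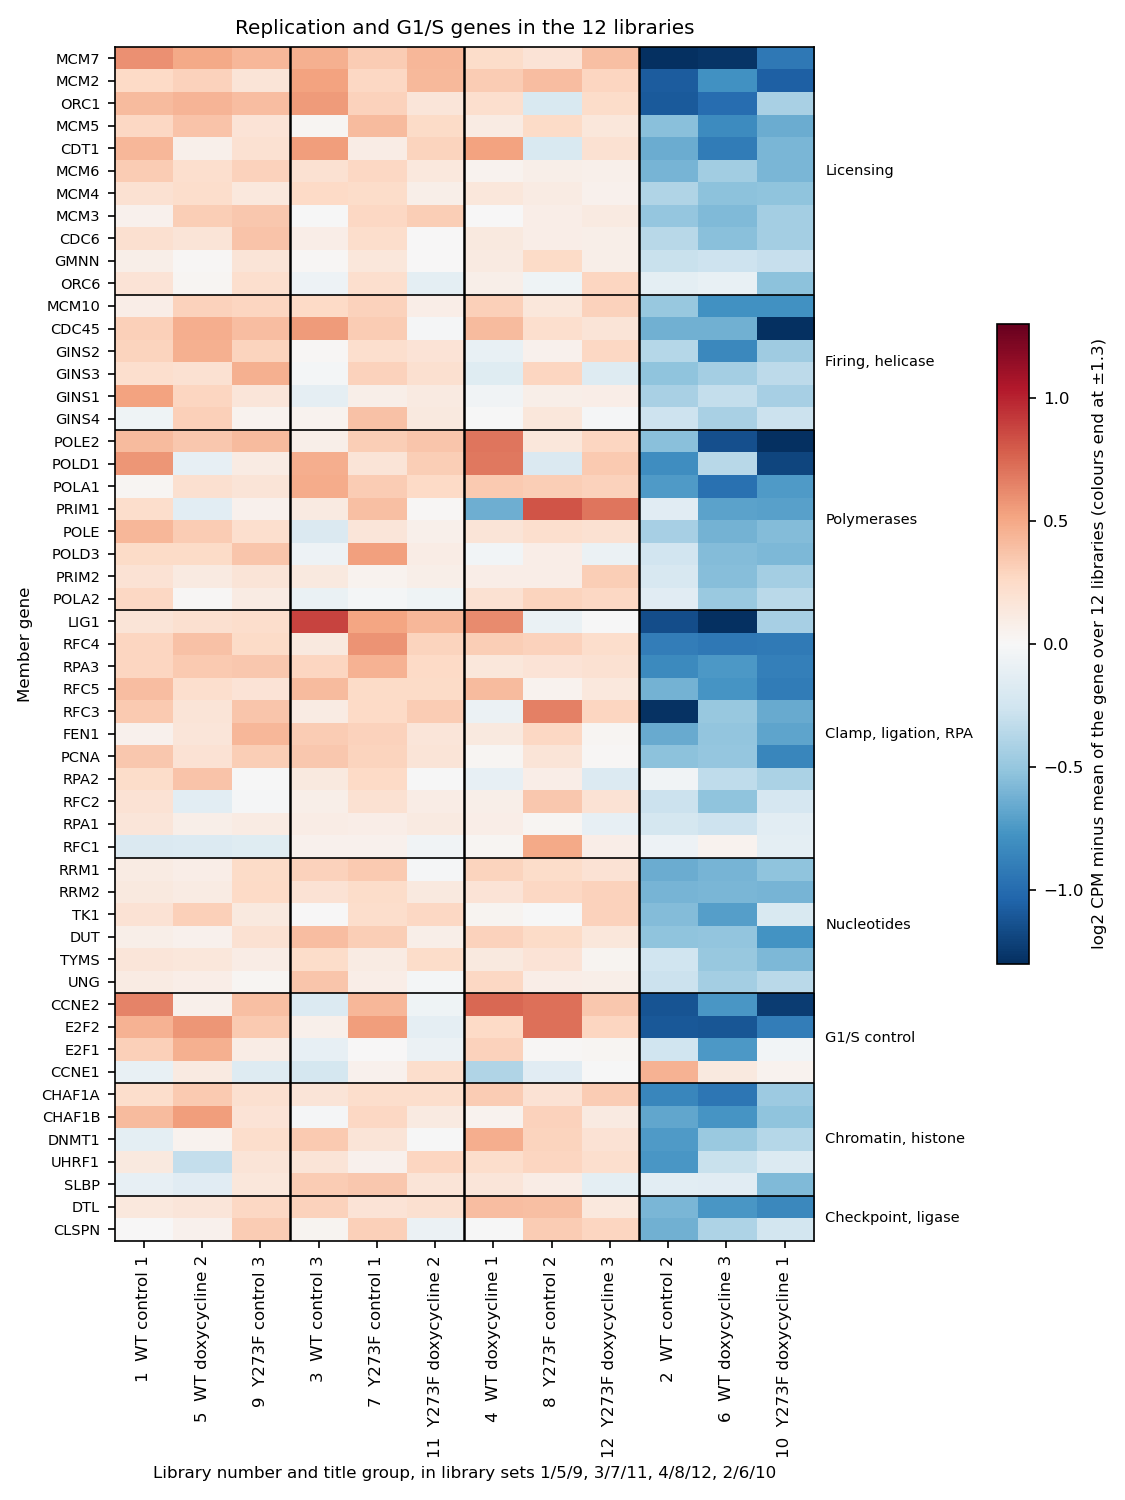
Level of the 53 members (rows, by role) in the 12 libraries (columns, by library set), as log2 CPM centred on the mean of each gene. The columns of libraries 2, 6 and 10 are lower in nearly every row, with a mean level of -0.60 to -0.54 beside 0.14 to 0.25 in the other 9, and CCNE1, RFC1 and SLBP are among the rows that do not follow.

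Because E2F factors bind many of these promoters, the promoter windows of the members (250 bases before to 50 after the gene start, RefSeq on GRCh38.p14) were searched for E2F letters. The letters were TTTGGCGC, TTTGCCGC, TTTCGCGC and TTTCCCGC, on both strands. A window was present for 46 of the 53 members, and 26 of the 46 (56.5%) held at least 1 match, against 6.66% of the 10191 tested genes with a window and 3.99% of all 27305 genes with a window. Among all 35116 windows, which have the same length, 3.31% held a match. The letters TTTGAA, which match the cell cycle homology region used by mitotic genes, were found in 3 members (DUT, RRM1 and UNG), or 6.52%, against 13.6% of the tested genes and 15.2% of all windows. These letters do not overlap the E2F letters.

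The windows of MCM7 (the RefSeq start with matches, of 3 starts), POLE2 and LIG1, the members with a match that differed most among those given in every library, and of RFC1, which hardly differed, are printed from 200 bases before to 10 bases after the start, 5′ to 3′, with E2F letters (on either strand) in capitals. They let genes that stood apart be set beside one whose values overlapped.
MCM7, chr7:100101388-100101597, minus strand: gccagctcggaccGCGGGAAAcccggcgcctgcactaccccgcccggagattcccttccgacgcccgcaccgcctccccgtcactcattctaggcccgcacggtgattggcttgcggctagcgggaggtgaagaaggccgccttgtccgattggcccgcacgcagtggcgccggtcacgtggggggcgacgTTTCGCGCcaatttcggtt
POLE2, chr14:49688205-49688414, minus strand: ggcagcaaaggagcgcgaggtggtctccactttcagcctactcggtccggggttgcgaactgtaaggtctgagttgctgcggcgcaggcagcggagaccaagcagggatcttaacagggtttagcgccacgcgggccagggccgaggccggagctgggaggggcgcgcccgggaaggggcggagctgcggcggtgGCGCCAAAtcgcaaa
LIG1, chr19:48170335-48170544, minus strand: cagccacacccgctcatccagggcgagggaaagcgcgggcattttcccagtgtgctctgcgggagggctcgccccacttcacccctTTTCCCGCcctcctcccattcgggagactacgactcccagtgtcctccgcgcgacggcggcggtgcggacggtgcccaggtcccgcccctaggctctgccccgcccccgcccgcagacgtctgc
RFC1, chr4:39366353-39366562, minus strand: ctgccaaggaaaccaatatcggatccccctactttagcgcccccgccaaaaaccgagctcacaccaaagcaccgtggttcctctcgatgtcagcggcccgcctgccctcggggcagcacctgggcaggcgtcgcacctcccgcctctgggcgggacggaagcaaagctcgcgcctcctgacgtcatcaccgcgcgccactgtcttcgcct
MCM7 has 2 matches in this window, one of them just before the start, and POLE2 has 1 that spans the start, with the letters on the opposite strand. The LIG1 match lies further upstream, and RFC1 has none. In the 26 members with a match there were 35 matches, 24 of them from 60 bases before the start onward, in 21 genes. The presence of the letters did not order the members. Those 26 had a median difference of -0.70 (-1.69 to -0.28) and the 20 without a match a median of -0.80 (-1.25 to 0.22). Outside the members, the 653 tested genes with the letters had a median difference of -0.11 and were negative in 59.6%, while the 9492 without had a median of -0.0003 and were negative in 50%.

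**Figure D2:**
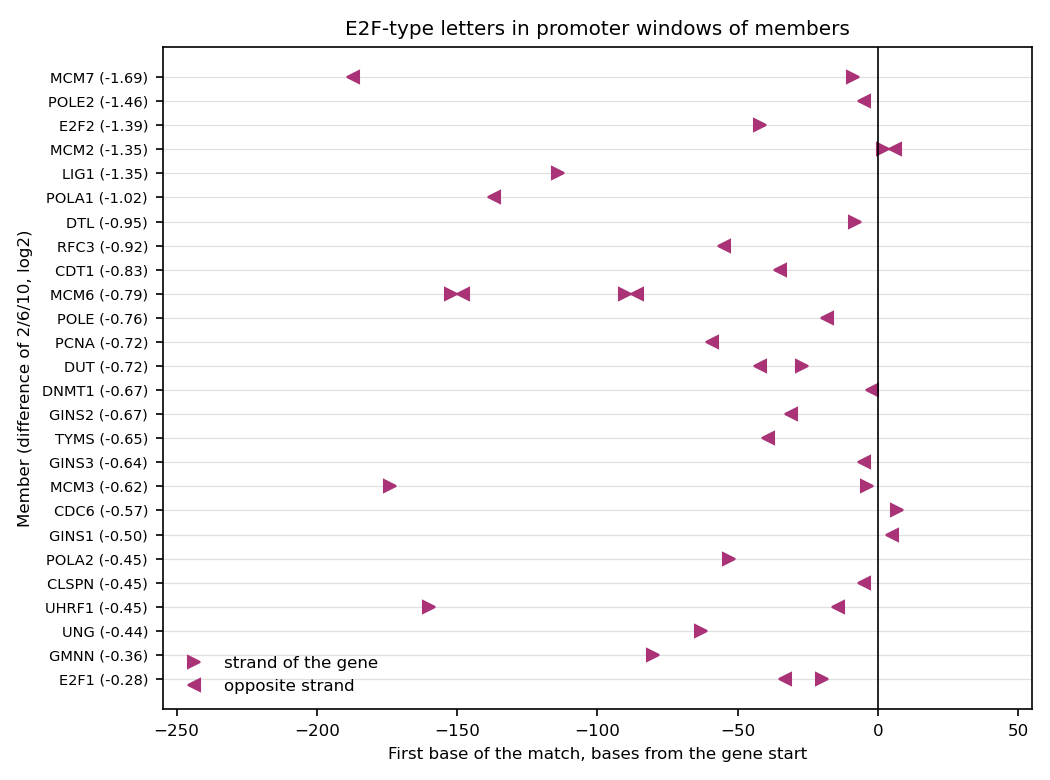
Position of each E2F letter match relative to the gene start (horizontal axis, bases) in the 26 members with a match, ordered by their difference between libraries 2, 6 and 10 and the other 9. Of the 35 matches, 24 lie from 60 bases before the start onward, and matches occur along the whole order of differences.

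Origin licensing genes lay below in 10 of 11 cases, with a median difference of -0.79. Here and in the later roles, below means all 3 of libraries 2, 6 and 10 under the other 9 (16.3% of all tested genes). MCM7, a subunit of the hexameric MCM2 to MCM7 helicase, differed most among all 53 members. It was read at 43.0, 45.3 and 57.3 CPM in libraries 2, 6 and 10 and at 123 to 165 CPM (median 147) in the other 9, a 3.23-fold lower median. The 2 groups of values are far apart. Next among the licensing genes was MCM2, at 26.6 to 32.5 CPM against 62.9 to 80.9 CPM, a difference of -1.35. MCM4, the licensing gene with the most reads, had 154, 140.2 and 141 CPM in libraries 2, 6 and 10 and 211 to 242 CPM (median 224) in the other 9, which is 1.59-fold lower. The subunits of the same helicase were therefore read lower by unequal amounts, with MCM3, MCM5 and MCM6 at -0.62, -0.88 and -0.79.

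The loaders and their inhibitor were lower as well. ORC1, the largest subunit of the origin recognition complex and the one regulated through the cell cycle, was 6.08 to 9.66 CPM in libraries 2, 6 and 10 and 11.3 to 19.1 CPM in the rest (difference -1.25). CDC6 and CDT1, which recruit the MCM helicase, had differences of -0.57 and -0.83, and GMNN, whose product geminin blocks CDT1 after origins fire, had -0.36. The exception was ORC6, the smallest subunit of the complex, at 43.2, 44.1 and 32.6 CPM in libraries 2, 6 and 10 and 43.2 to 57.0 CPM (median 49.8) in the other 9. Its values overlap, and its difference of -0.20 was -0.42 without WT doxycycline 3 and -0.39 without WT control 2.

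All 6 origin firing and helicase genes lay below, with a median of -0.65. MCM10, a firing factor that helps the helicase open, was read at 33.8, 27.4 and 27.6 CPM in libraries 2, 6 and 10 and at 50.4 to 58.9 CPM (median 57.5) in the others, 2.08-fold lower. CDC45 was at 5.73 to 11.3 CPM against 17.2 to 25.4 CPM. The 4 subunits of the GINS complex, which binds CDC45 and the MCM ring, differed less. GINS1 had 51.1, 55 and 50.5 CPM beside 62.9 to 98.3 CPM (median 72.4), and GINS2 had 37.6, 27.3 and 35.4 CPM beside 45.7 to 66.9 CPM (median 56.6). None of the subunits overlapped, and the smallest difference of the role was -0.32 for GINS4, with 19.1, 17.3 and 19.0 CPM beside 22.3 to 29.97 CPM (median 23.8). GINS3 overlaps a gene on the opposite strand (over 10% of the reads there were on that strand), and only transcript-strand counts were used for it.

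Among polymerases and primase, 7 of 8 genes lay below, with a median of -0.77. POLE2, the second subunit of the leading-strand polymerase epsilon, was read at 9.45, 6.27 and 5.37 CPM in libraries 2, 6 and 10 and at 14.6 to 22.4 CPM (median 17.6) in the other 9, which is 2.75-fold lower. Its catalytic partner POLE differed by -0.76. POLA1, the catalytic subunit of polymerase alpha that starts each new strand together with primase, was 13.9 to 16.5 CPM against 27.8 to 38.3 CPM, while its partner POLA2 was 27.5, 21.9 and 24.0 CPM against 28.7 to 37.2 CPM (median 32.9). Subunits of 1 enzyme thus differed by -1.02 and -0.45. POLD1 and POLD3, of the lagging-strand polymerase delta, differed by -1.10 and -0.66. PRIM1, the catalytic primase subunit, is the member of this role whose values overlapped, at 4.30 to 6.30 CPM against 4.499 to 12.3 CPM, and its partner PRIM2 differed by -0.54.

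Clamp, clamp loader, Okazaki maturation and single-strand binding genes lay below in 9 of 11 cases, with a median of -0.81. LIG1, the ligase that joins Okazaki fragments, was read at 5.85, 5.01 and 9.66 CPM in libraries 2, 6 and 10 and at 12.3 to 23.9 CPM (median 15.3) in the other 9, which is 2.55-fold lower. FEN1, the flap nuclease that acts before it, differed by -0.81. PCNA, the sliding clamp that both bind, had 169.9, 174 and 137 CPM beside 248 to 314 CPM (median 280.5), a 1.65-fold lower median. The clamp loader subunits did not move alike. RFC3, RFC4 and RFC5 differed by -0.92, -1.19 and -1.01, and RFC2 by -0.38. RFC1, the large subunit specific to the replicative loader, overlapped at 107, 115 and 102 CPM beside 98.4 to 157 CPM (median 113), with a difference of -0.08, which ran from -0.13 (without WT doxycycline 3) to -0.04 (without Y273F doxycycline 1). Of the single-strand binding protein RPA, RPA3 differed by -1.10 and RPA1 by -0.31, and RPA2 overlapped at 30.4 to 39.2 CPM against 35.8 to 52.1 CPM. Of the reads at RFC4 and RFC5, 57.65% and 53.87% were on the opposite strand and were not used.

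All 6 nucleotide supply and uracil removal genes lay below, by -0.84 to -0.44. RRM1, the large subunit of ribonucleotide reductase, which makes deoxynucleotides, was the member with the most reads. It had 241, 248 and 262 CPM in libraries 2, 6 and 10 and 372 to 476 CPM (median 445) in the other 9. RRM2, the subunit made in S phase, was 113 CPM in each of libraries 2, 6 and 10 and 183 to 210.4 CPM in the rest, so the subunits differed by nearly the same amount (-0.84 and -0.79). TYMS, TK1 and DUT, which make, salvage and keep clean the thymidine pool, differed by -0.65, -0.75 and -0.72. UNG, the glycosylase that removes uracil from DNA, had 52.0, 46.5 and 49.4 CPM beside 62.2 to 81.2 CPM (median 67.1).

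The G1/S control genes split. CCNE2, one of the E-type cyclins that activate CDK2, was read at 2.70, 3.48 and 2.505 CPM in libraries 2, 6 and 10 and at 5.19 to 9.87 CPM (median 7.69) in the other 9, 2.69-fold lower. CCNE1, the other E-type cyclin, had 24.8, 19.8 and 18.6 CPM beside 13.8 to 21.1 CPM (median 16.9), so that its values overlapped and its difference of 0.22 was the one positive difference among the 53. It was 0.37 without Y273F doxycycline 1. The cyclin E genes therefore lay on opposite sides of 0. E2F2 differed by -1.39, while E2F1, another activator of the family, overlapped at 7.24 to 11.8 CPM against 11.3 to 16.7 CPM. CCNE2 was among the lowest members and shares its locus with a gene read on the other strand, which gave 81.7% of the reads there, and its difference was -0.53 where the strands were counted together.

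Of the chromatin genes, 3 of 5 lay below. CHAF1A, the large subunit of the assembly factor that places histones behind the fork, had 24.3, 22.8 and 31.5 CPM in libraries 2, 6 and 10 and 49.1 to 55.5 CPM (median 51.4) in the other 9, 2.10-fold lower, and its partner CHAF1B differed by -0.85. DNMT1, the maintenance DNA methyltransferase, had 79.2, 94.6 and 102 CPM beside 122 to 183 CPM (median 151). UHRF1, which brings DNMT1 to new DNA, overlapped at 6.98 to 10.4 CPM against 9.50 to 14.3 CPM. SLBP, which binds the stem-loop of replication-dependent histone mRNAs, overlapped as well, at 42.8, 42.5 and 31.5 CPM beside 42.4 to 59.8 CPM (median 52.2), and its difference of -0.29 was -0.53 without WT doxycycline 3 and -0.51 without WT control 2. The assembly factor subunits thus stood apart and the histone mRNA binding gene did not. At CHAF1A 45.13% of the reads were on the opposite strand and were not used.

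Both members of the checkpoint and ligase adaptor role lay below. DTL, the adaptor that directs a ubiquitin ligase to CDT1 on the clamp, had 21.2, 18.9 and 17.9 CPM in libraries 2, 6 and 10 and 34.99 to 42.2 CPM (median 36.9) in the other 9, 1.94-fold lower. CLSPN, whose product claspin carries the checkpoint signal to CHK1, had 52.4, 61.4 and 68.7 CPM beside 77.0 to 102 CPM (median 83.9), a difference of -0.45. DTL thus differed by more than CLSPN, and neither overlapped.

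**Figure D3:**
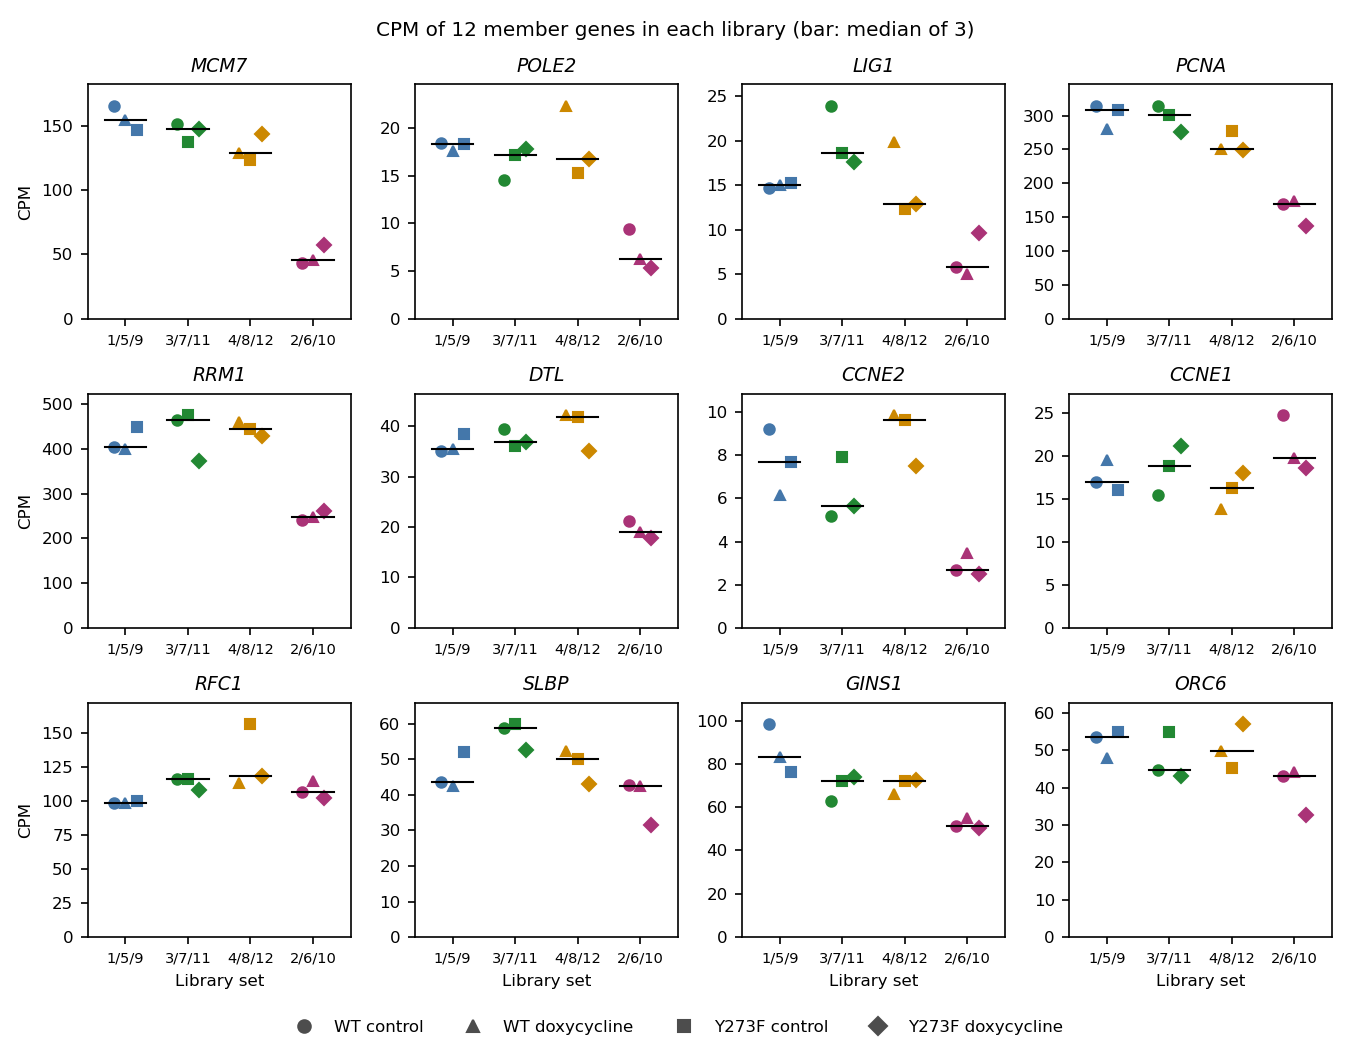
CPM of 12 members in each library (points; colour is the library set, marker shape the title group, bar the median of the 3 libraries of a set). MCM7, POLE2, LIG1, PCNA, RRM1, DTL, GINS1 and CCNE2 have their lowest 3 values in libraries 2, 6 and 10, while the values of CCNE1, RFC1, SLBP and ORC6 overlap.

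**Figure D4:**
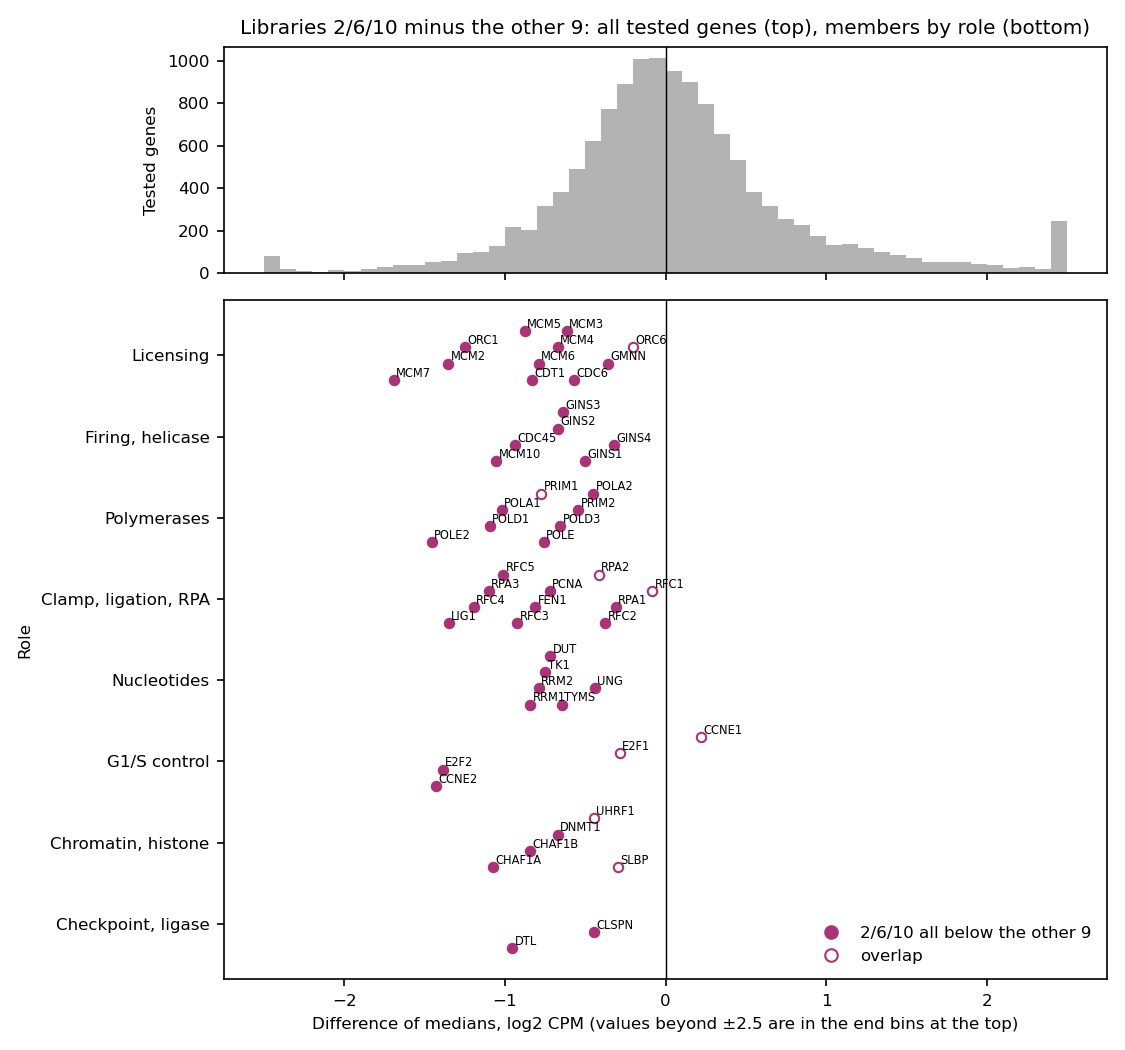
Difference in log2 CPM of the medians of libraries 2, 6 and 10 and of the other 9: the distribution over all 13047 tested genes (top) and the 53 members by role (bottom; filled points have all 3 libraries below the other 9). The members run from -1.69 (MCM7) to 0.22 (CCNE1) with a median of -0.75, to the left of the centre of all genes.

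Outside libraries 2, 6 and 10 the members differed little between sets. Against the other 9 libraries, the median difference of the 53 was 0.12 for set 1/5/9, 0.11 for 3/7/11 and 0.05 for 4/8/12. For each of these sets the other 9 include libraries 2, 6 and 10, so these medians also hold the distance to those libraries. In the 45 members where 2, 6 and 10 lay below all others, no other set could lie wholly below. Few members had a set wholly apart. Set 1/5/9 lay below the rest for RFC1 (2.56% of all tested genes) and above for GINS1 and GINS2 (3.02%), set 3/7/11 lay above for SLBP (1.24%) and below for none (1.13%), and set 4/8/12 lay apart for none (1.26% below and 1.18% above). SLBP was read at 58.9, 59.8 and 52.6 CPM in libraries 3, 7 and 11, and RFC1 at 98.4, 98.7 and 99.9 CPM in libraries 1, 5 and 9.

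Pairs of these 3 sets split the members in both directions. Between 4/8/12 and 1/5/9 the median difference was -0.06, 9 members lay wholly lower (ORC1, CDC6, MCM6, MCM7, GINS1, GINS2, POLD3, PCNA and RPA3, against 14.2% of all tested genes) and 3 wholly higher (POLA1, RFC1 and UHRF1, against 14.1%). Between 3/7/11 and 1/5/9 it was -0.02, with 5 lower (9.98% of all tested genes) and 4 higher (9.67%), and between 4/8/12 and 3/7/11 it was -0.04, with 4 lower (8.5%) and 3 higher (8.98%). Set beside 2/6/10, in contrast, 49 of the 53 members were wholly higher in each of the other sets, where 27.6%, 25.9% and 23.1% of all genes were. RFC1 in 1/5/9 (27.7% of all tested genes) and CCNE1 in 4/8/12 (25%) were the members wholly lower than in 2/6/10, and in 3/7/11 no member was (27%).

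The members varied together less once those 3 libraries were set aside. Over 12 libraries, the correlation of a member's log2 CPM with the mean of the other members had a median of 0.90, was positive for 52 of 53 and was -0.56 for CCNE1. Over the 9 libraries without 2, 6 and 10 the median was 0.12, 33 were positive and the values ran from -0.57 (MCM2) to 0.78. These correlations share libraries and scaling and are given as descriptions. Among the non-members whose pattern over 12 libraries was most like the mean of the members, out of 10379 genes with a mean of at least 5 CPM, were DKK1, WAC, FOXA2 and NUP88, each with r of 0.99. Such an r largely reflects the gap between libraries 2, 6 and 10 and the rest. It was not computed over the other 9 for these genes. DKK1, a secreted Wnt inhibitor, was read at 139.6 to 169 CPM in libraries 2, 6 and 10 and at 448 to 551 CPM in the other 9.

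By title, no member passed the test in any of the 4 comparisons (edgeR's quasi-likelihood test, Benjamini-Hochberg adjusted p under 0.05), and neither did any of the 13047 genes (0% called in each). DESeq2 and limma-voom also called 0 genes in each. The groups are those of the titles, and each direction given by title depends on every library carrying its right title. DYRK1B, the gene to be induced, went against them. The library labelled Y273F control 2 had more of it (12.6 CPM) than 4 of the 6 libraries labelled doxycycline. In the members, libraries 2, 6 and 10 resemble each other across their titles. Whether a title and a library were exchanged was not tested. The comparisons share groups, so their values are given side by side. The libraries of a group are described as separate populations grown in parallel, and the p-values set group differences against the spread between these libraries. Without libraries 2, 6 and 10 the members' median SE fell from 0.273 to 0.16 for doxycycline in WT. Between the untreated lines it fell from 0.275 to 0.147, and 0 genes passed in either comparison. These libraries were set aside because they stood apart in these genes, so a smaller spread followed from that choice. WT control, WT doxycycline and Y273F doxycycline each lose a library by it.

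For doxycycline in the WT line, PCNA had 314, 169.9 and 314 CPM in WT control and 251, 280.5 and 174 CPM in WT doxycycline. These values overlap, and each group holds 1 low library. The means were 266 ± 83.4 and 235 ± 55.0 CPM (SD, n = 3), and the fitted log2 fold change was -0.18 (SE 0.29, edgeR adjusted p = 1.00). CDC6, RRM2 and CCNE2 had log2 fold changes of -0.05 (SE 0.21), -0.01 (SE 0.27) and 0.16 (SE 0.49). The median over the 53 members was -0.03, beside -0.0016 over all genes, with 20 positive and 33 negative and a range from -0.54 (PRIM1) to 0.17 (DNMT1). The direction turned with 1 library: without WT control 2 the median was -0.21 with 2 positive, without WT doxycycline 3 it was 0.18 with 47 positive, and it was also positive without WT control 1 (0.08) or WT control 3 (0.07). No member had groups that do not overlap, where 1.56% of the tested genes were wholly higher and 1.63% wholly lower. Each of these groups holds 1 of libraries 2, 6 and 10. Overlap was thus fixed beforehand for every member where those libraries lay under all the rest. At an unadjusted p under 0.05 there were 118 genes (0.904%) by edgeR, 110 by DESeq2 and 145 by limma-voom, and by edgeR none was a member.

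For doxycycline in the Y273F line the members leaned lower. PCNA had 301, 277 and 308 CPM in Y273F control and 137, 276 and 248 CPM in Y273F doxycycline. The lowest value is that of library 10, and the other 2 libraries of that group lie below the control libraries as well, by less than 1 CPM at the nearest pair. The means were 295 ± 16.4 and 220.4 ± 73.5 CPM (SD, n = 3), a log2 fold change of -0.42 (SE 0.29, edgeR adjusted p = 0.99). CDC6, RRM2 and CCNE2 gave -0.33 (SE 0.22), -0.26 (SE 0.27) and -0.62 (SE 0.50). These sizes rest on single libraries. Without Y273F doxycycline 1 (library 10) CDC6, PCNA, RRM2 and CCNE2 were -0.20, -0.17, -0.04 and -0.33, and the median of the members was -0.07 with 14 positive. Without Y273F doxycycline 3 RRM2 and CCNE2 were -0.45 and -0.98 and the median was -0.39, and without Y273F doxycycline 2 the median was -0.37. The median was -0.25 beside 0.01 over all genes, 51 of the 53 values were negative, and they ran from -0.66 (E2F2) to 0.17 (CCNE1). In 13 members the doxycycline libraries lay wholly below the control libraries (CDC6, GMNN, MCM4, CDC45, GINS3, PCNA, FEN1, RRM1, DUT, CCNE2, E2F2, CHAF1B and CLSPN), against 5.46% of the tested genes, and 0 lay wholly above (5.46%). In each of these 13, libraries 2, 6 and 10 lay under all the rest, so library 10 was below the control libraries beforehand. Only the other 2 doxycycline libraries decided this count, and the share over all tested genes is not a like baseline. With libraries 2, 6 and 10 left out the median was -0.07, with 16 positive and 37 negative, and 0 members had an unadjusted p under 0.05 (1.88% of genes). The counts at an unadjusted p under 0.05 were 215 genes (1.65%) by edgeR, 214 by DESeq2 and 199 by limma-voom, and 0 members by edgeR.

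The difference of these effects (WT minus Y273F) had a median of 0.24 over the members, beside -0.02 over all genes, with 47 positive and 6 negative. It ran from -0.27 (CCNE1) to 0.78 (CCNE2, SE 0.69), and the edgeR adjusted p was 1.00 for the member with the smallest p. CDC6, PCNA and RRM2 had 0.28 (SE 0.30), 0.24 (SE 0.41) and 0.25 (SE 0.38). The doxycycline effects of the WT and Y273F lines on these genes were thus not told apart at this spread. Without libraries 2, 6 and 10 the median was 0.07, 0 members had an unadjusted p under 0.05 (1.73% of genes) and the value of PCNA was -0.0685, while with 1 library left out the median ran from 0.05 (without WT control 2, 31 positive) to 0.46 (without WT doxycycline 3, 51 positive). In the same way CDC6 ran from 0.14 to 0.49 and RRM2 from 0.03 (without Y273F doxycycline 1) to 0.46, with the other ends set by these 2 WT libraries. CCNE2 ran from 0.36 (without WT doxycycline 1) to 1.302 (without WT control 1). At an unadjusted p under 0.05 there were 160 genes (1.23%) by edgeR, 141 by DESeq2 and 154 by limma-voom, and none was a member by edgeR.

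Between the untreated lines the members leaned higher in Y273F control. CLSPN, chosen after its values were seen as the only member with an unadjusted p under 0.05 by edgeR, had 81.0, 52.4 and 83.1 CPM in WT control and 101, 102 and 102 CPM in Y273F control, groups that do not overlap. Its log2 fold change was 0.49 (SE 0.19, edgeR adjusted p = 0.99). RRM2, with groups that do not overlap either, had 0.31 (SE 0.27), and CDC6, PCNA and CCNE2 had 0.24 (SE 0.21), 0.15 (SE 0.29) and 0.52 (SE 0.49). The median was 0.22 beside -0.03 over all genes, 49 values were positive, and they ran from -0.17 (POLD1) to 0.56 (E2F2). In 5 members (GMNN, MCM3, GINS3, RRM2 and CLSPN) the Y273F control libraries lay wholly above, against 5.62% of the tested genes, and in 0 wholly below (5.24%). In each of these 5, libraries 2, 6 and 10 lay under all the rest, so WT control 2 was below Y273F control beforehand. Only WT control 1 and 3 decided this count, and the share over all tested genes is not a like baseline. Y273F control is the group without any of libraries 2, 6 and 10, and with these left out the median was 0.04, with 34 positive, and the value of PCNA turned to -0.0893, and 2 members had an unadjusted p under 0.05 (5.91% of genes). Leaving out WT control 2 alone gave a median of 0.04, with CDC6 at 0.09, RRM2 at 0.10, PCNA at -0.0905 and CCNE2 at 0.21, while leaving out WT control 1 or 3 gave medians of 0.33 for either, and CCNE2 was 1.04 without WT control 1. At an unadjusted p under 0.05 there were 445 genes (3.41%) by edgeR, 471 by DESeq2 and 454 by limma-voom.

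**Figure D5:**
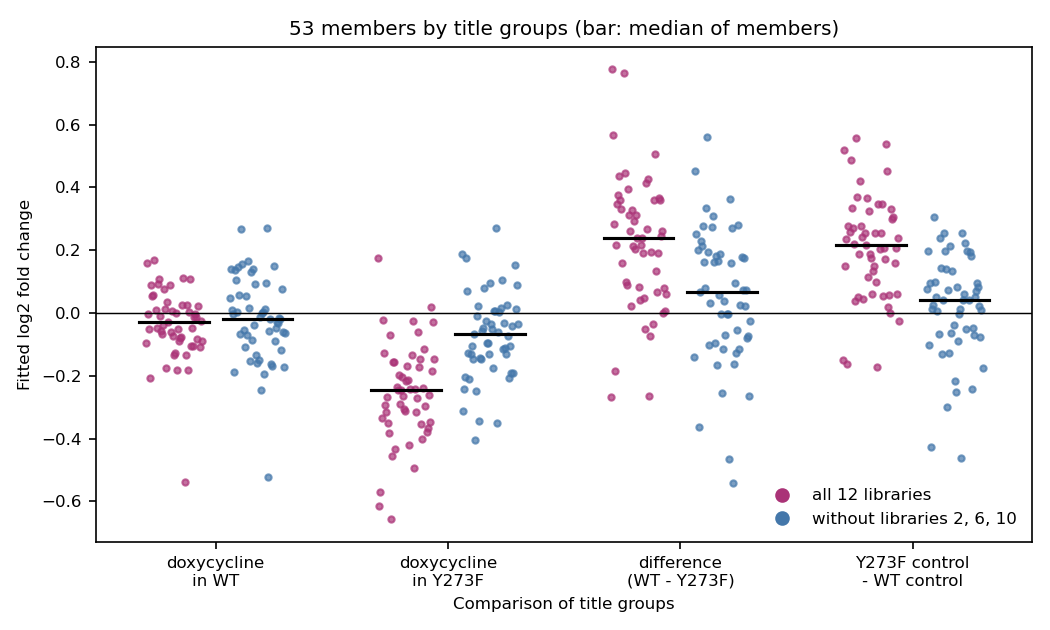
Fitted log2 fold changes of the 53 members (points, with the median as a bar) in the 4 comparisons by title, with all 12 libraries and without libraries 2, 6 and 10. The medians are -0.03, -0.25, 0.24 and 0.22 with all libraries and -0.02, -0.07, 0.07 and 0.04 without the 3.

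Other genes of the pathway were described from lists. Of 46 other replication and S-phase genes, 44 were tested, and in 31 of them libraries 2, 6 and 10 lay wholly below the other 9, with 2 wholly above (POLE4, a small subunit of polymerase epsilon, and CTPS1, a CTP synthase), where 16.3% of all tested genes lay below and 18.8% above. Their median difference was -0.69, with a range from -1.65 (ATAD5, which unloads the clamp) to 1.36 (CTPS1). Of 31 other G1/S control genes 28 were tested, with 5 below and 6 above, which is near the 16.3% and 18.8% of all tested genes, and with a median of -0.23. In that list CDKN1A, the CDK inhibitor p21, had 243 to 276 CPM in libraries 2, 6 and 10 and 43.1 to 63.4 CPM in the other 9, and CDKN1B, the inhibitor p27, had 27.6 to 36.3 CPM and 53.6 to 73.5 CPM. These 2 inhibitors thus lay on opposite sides. Of the other tested inhibitors, CDKN1C lay wholly above (difference 0.70), CDKN2C wholly below (-0.63), and CDKN2D overlapped (-0.21). CCND1, a D-type cyclin that acts ahead of cyclin E, was higher, at 242 to 259.8 CPM beside 148 to 212 CPM. CCND3, another D-type cyclin, lay wholly above as well (0.78).

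Of 16 genes of the DREAM and MuvB complexes and their kinases, 15 were tested, and libraries 2, 6 and 10 lay below for 6 and above for 1, where 16.3% and 18.8% of all tested genes did. The gene above was E2F4, a repressor E2F of the complex, at a difference of 0.26, and the lowest was DYRK1A, the paralog of DYRK1B, at -0.61. The median was -0.40. MKI67, a proliferation marker outside the members, had 129 to 178 CPM in libraries 2, 6 and 10 and 185 to 253 CPM in the other 9. By title, 0 genes of these 3 lists passed edgeR's test in any comparison.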

How the data were processed

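Expression was measured in 12 libraries. The authors deposited whole-number counts per gene, and the submitters' processing notes name STAR and GRCh38.p14, with no version or annotation given. The merged table was used with its 40605 rows, of which 1212 repeat a symbol and were kept as separate rows. All 53 members equal their transcript-strand counts in the 12 libraries. Reads assigned to no gene (35.5% to 43.2%) were left out of totals. CPM are counts scaled to a library of 1e+06 with TMM factors, and log2 CPM used a prior count of 2. After filterByExpr (minimum count 10), edgeR 4.0.16 (quasi-likelihood test, R 4.3.3) was run in 1 model of the 4 groups of the titles, at a Benjamini-Hochberg adjusted p under 0.05 over 13047 genes. DESeq2 1.42.0 and limma-voom (limma 3.58.1) were alternatives, beside other filters, scalings, strand settings, a replicate block and left-out libraries. The members and lists were chosen with earlier results of these data known. Values in every library are given, for each role, for the members with the highest mean CPM and the lowest and highest differences of libraries 2, 6 and 10, and for members with another set wholly apart. Fitted fold changes are given for CDC6, PCNA, RRM2 and CCNE2. The CPM values of 3 counts cover counting error only, while standard errors are from the fit and include the spread between libraries. Some genes of the marker lists and of the genes most like the members are not reported here.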

Additional observations from a re-analysis of the deposited data

How the results depend on the processing

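No member passed the threshold under any alternative run. The number of genes passing over the whole table ranged from 0 to 1 when a library was left out, for doxycycline in Y273F, for the difference of the effects and for the comparison of the untreated lines, and 0 genes passed in the other alternatives. Leaving out Y273F control 2 gave SLX1B, leaving out Y273F doxycycline 2 gave RPL32P18, and leaving out Y273F doxycycline 3 gave FKBP1C, none of them a member. The median difference of libraries 2, 6 and 10 ranged from -0.78 to -0.71 over its alternatives, the last with unstranded counts, where reads of overlapping genes are added and 41 members lay wholly below. CCNE2 was -0.53 there. Over the 21 members given in every library, 0 of 378 alternative values changed sign. Of these values, 13 moved by at least the pooled SD within the library sets. Libraries of a set carry different titles and are not replicates.

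Values by title depended on single libraries. With libraries 2, 6 and 10 left out, PCNA turned to -0.0685 in the difference of the effects and -0.0893 between the untreated lines. With 1 library left out at a time, values for doxycycline in WT ranged from -0.19 to 0.15 for CDC6, -0.22 to 0.19 for RRM2 and -0.26 to 0.68 for CCNE2, and PCNA ranged from -0.0083 to 0.44 in the difference and from -0.0905 to 0.29 between the untreated lines. The cause was not tested. The fit of only the groups compared was not run for the difference, which uses all 4 groups.

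The replicate block also gave 0 genes past the threshold in each comparison, with members' medians of -0.03, -0.26, 0.25 and 0.22 and with 73, 113, 78 and 282 genes at an unadjusted p under 0.05. The replicate numbers were taken as numbers alone, since deviations of same-numbered libraries correlated from -0.82 to 0.69 over 18 pairs and only 4 pairs exceeded 0.1. Depth limits the low members most: the lowest count in a library was 7 for CCNE2 and 12 for PRIM1 and POLD1.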
